A study of Mus musculus with 6 samples.

Results

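Mitochondrial ribosomal protein genes were taken as all gene symbols that begin with Mrpl or Mrps followed by a digit. The rule found 77 of the 24421 symbols in the deposited table, 48 named for the large subunit (Mrpl) and 29 for the small subunit (Mrps). RNA was sequenced from whole heart of C57BL6/J mice aged 4 weeks, with no genetic change or treatment given in the labels. There were 6 libraries: 2 of RNA recovered by RNA immunoprecipitation (RIP) with an antibody against Cnot3, 2 of RNA recovered with a control IgG (control IgG RIP, called the control RIP below), and 2 of the lysate before precipitation (Input). Cnot3 belongs to the CCR4-NOT complex, which removes the poly(A) tails of mRNAs in the cytoplasm, and comparing its RIP with the control IgG asks which transcripts the antibody brought down above background. The labels do not say whether the 2 libraries of a group came from separate animals, so every p-value measures only how far these libraries spread, and that spread may be technical.

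The mitochondrial ribosome makes the few proteins encoded by mitochondrial DNA, all of them parts of the respiratory chain or of ATP synthase. Its RNA comes from the mitochondrial genome, but its proteins are encoded in the nucleus, translated in the cytoplasm and imported. Heart muscle is rich in mitochondria and depends on this supply. Some subunits, such as those encoded by Mrpl12 and Mrps2, have bacterial counterparts, and others, such as those encoded by Mrpl42 and Mrps23, were added in the mitochondrial lineage.

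Of the 77 members, 75 (47 Mrpl and 28 Mrps) passed the filter on low values and were tested. Mrpl23, whose product lines the exit of the peptide tunnel, had 1 and 3 reads in Input, 1 and 3 in control RIP and 0 and 1 in Cnot3 RIP. Mrps36, whose product is now assigned to the 2-oxoglutarate dehydrogenase complex, had 0 reads in each of the 4 RIP libraries and 1 and 2 in Input. Both genes have close copies in the mouse genome: 76.9% of the 36-base words of the Mrpl23 transcript and 41.1% of those of Mrps36 also occur in transcripts of other genes, so their counts are uncertain.

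The promoters of 4 members are shown because they carry, in capitals, the 3 sequence cores searched for and because one of them overlaps that of another member on the opposite strand. Each runs 5′ to 3′ on the strand of its gene, from 250 bases before to 50 bases after the start annotated by RefSeq on GRCm38.p6 (mm10). Mrpl42, lowest of all members against Input, lies on the minus strand of chr10 at 95480805-95501940, and its window is chr10:95501900-95502199 with the core AAGATGGCG of the factor YY1. Mrpl12, whose product forms the flexible stalk of the large subunit and also binds the mitochondrial RNA polymerase, lies on the plus strand at chr11:120484613-120489065, and its window is chr11:120484387-120484686 with the core CGCNTGCGC of the factor NRF1. Mrpl18, a protein of the central protuberance, lies on the minus strand at chr17:12911349-12916345, and its window is chr17:12916042-12916341 with the core CCGGAAG of the ETS family. Mrps11, a protein of the small subunit platform, lies on the plus strand at chr7:78783119-78792989, and its window is chr7:78782881-78783180 with the YY1 core on the opposite strand.
Mrpl42: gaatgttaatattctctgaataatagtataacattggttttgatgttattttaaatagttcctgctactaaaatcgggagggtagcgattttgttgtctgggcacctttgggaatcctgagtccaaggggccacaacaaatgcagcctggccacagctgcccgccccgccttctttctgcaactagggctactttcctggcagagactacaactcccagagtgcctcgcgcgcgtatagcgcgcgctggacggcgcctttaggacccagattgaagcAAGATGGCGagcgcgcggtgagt
Mrpl12: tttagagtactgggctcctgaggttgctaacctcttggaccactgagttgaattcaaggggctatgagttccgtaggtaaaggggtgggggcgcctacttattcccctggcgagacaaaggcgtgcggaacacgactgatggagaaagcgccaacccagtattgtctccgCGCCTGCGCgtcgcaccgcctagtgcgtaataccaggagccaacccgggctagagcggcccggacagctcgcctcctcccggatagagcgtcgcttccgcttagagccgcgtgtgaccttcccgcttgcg
Mrpl18: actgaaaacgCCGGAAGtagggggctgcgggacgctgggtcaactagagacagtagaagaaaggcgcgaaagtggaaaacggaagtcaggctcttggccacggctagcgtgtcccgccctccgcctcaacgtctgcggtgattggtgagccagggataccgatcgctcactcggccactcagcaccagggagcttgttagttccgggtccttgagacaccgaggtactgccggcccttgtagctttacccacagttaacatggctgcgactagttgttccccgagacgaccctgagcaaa
Mrps11: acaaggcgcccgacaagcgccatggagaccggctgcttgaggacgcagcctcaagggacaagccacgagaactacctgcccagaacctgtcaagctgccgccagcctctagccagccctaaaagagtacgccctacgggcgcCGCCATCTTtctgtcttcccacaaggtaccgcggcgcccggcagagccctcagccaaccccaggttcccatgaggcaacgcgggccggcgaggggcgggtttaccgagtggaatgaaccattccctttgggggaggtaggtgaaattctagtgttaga
The Mrps11 window shares 141 bases with the window of Mrpl46, which is read in the other direction.

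Windows were found for 68 members, 42 Mrpl and 26 Mrps. On either strand the NRF1 core occurred in 16 of them (23.5%) against 6.25% of all 32851 windows, the ETS core in 25 (36.8%) against 8.86%, and the YY1 core in 8 (11.8%) against 1.40%. No core contains another, and at least 1 of the 3 was found in 41 of the 68 members (60.3%) and in 14.8% of all windows. Members were counted as genes and the background as windows, and the background takes in every window, whether or not its gene was tested. A window overlapping that of a gene on the opposite strand was found for 24 of the 68 members (35.3%) and for 10.8% of all windows, for example Mrpl18 with Tcp1 and Mrps12 with Sars2. Medians of members with and without each core are given for one of the comparisons described below, with no test made. The median log2 difference between Cnot3 RIP and Input was −0.50 with and −0.68 without the NRF1 core. It was −0.67 with and −0.68 without the ETS core, and −0.65 with and −0.68 without the YY1 core. These matches are descriptions of the letters and not evidence of binding.

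Libraries held 15713318 to 33479580 reads, of which the ribosomal RNA precursor Rn45s took 51.1% to 60.2% in the RIP libraries and 78.3% and 79.2% in Input. Because Rn45s differs so much, deposited CPM (reads per gene over the library total) were rescaled with TMM factors, which set the bulk of the genes level, and levels below are scaled CPM. The median tested member had 96 to 219 reads in a library. Heart muscle markers (Myh6, Tnnt2, Actc1, Myl2, Ryr2, Tnni3 and Pln) were abundant in every library, at 18190 to 34360 scaled CPM summed, and the liver genes Alb and Apoa1 were at 0 to 0.185. The 3 fibroblast markers summed to 421 and 312 scaled CPM in Input, 314 and 564 in control RIP and 628 and 269 in Cnot3 RIP. The 3 endothelial markers summed to 229 and 181, 179 and 301, and 322 and 166 in that order. Control RIP replicate 2 and Cnot3 RIP replicate 1 were thus the high ones among the RIP libraries.

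In Input the members covered a wide range of levels per kilobase of exon. Among small subunit genes Mrps23 led with 25.2 ± 1.87 scaled CPM per kilobase (SD, n = 2), followed by Mrps28 with 8.60 ± 2.15, Mrps7 with 7.14 ± 2.16 and Mrps24 with 6.98 ± 0.70. The last 3 do not differ beyond their spread. Among large subunit genes the order was Mrpl12 with 18.6 ± 1.83, Mrpl34 with 14.9 ± 2.28, Mrpl28 with 14.5 ± 4.45 and Mrpl18 with 13.7 ± 2.84, again with overlapping spreads from the second to the fourth. Among tested members the lowest Mrpl genes were Mrpl47 at 1.02 ± 0.31 and Mrpl48 at 0.38 ± 0.037, and the lowest Mrps genes were Mrps5 at 0.55 ± 0.063 and Mrps10 at 0.25 ± 0.029. The median over tested members was 4.63 scaled CPM per kilobase for Mrpl and 2.92 for Mrps. Order depends on the gene model: per kilobase of the principal transcript, Mrpl42 stood first at 63.0, because that transcript has 666 bases and the merged exons 3682, while Mrps10 was at 2.01 in place of 0.25. The median was higher for Mrpl than for Mrps with the merged exons, with the longest transcript (5.91 and 3.75) and with the principal transcript (7.64 and 4.68).

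**Figure D1:**
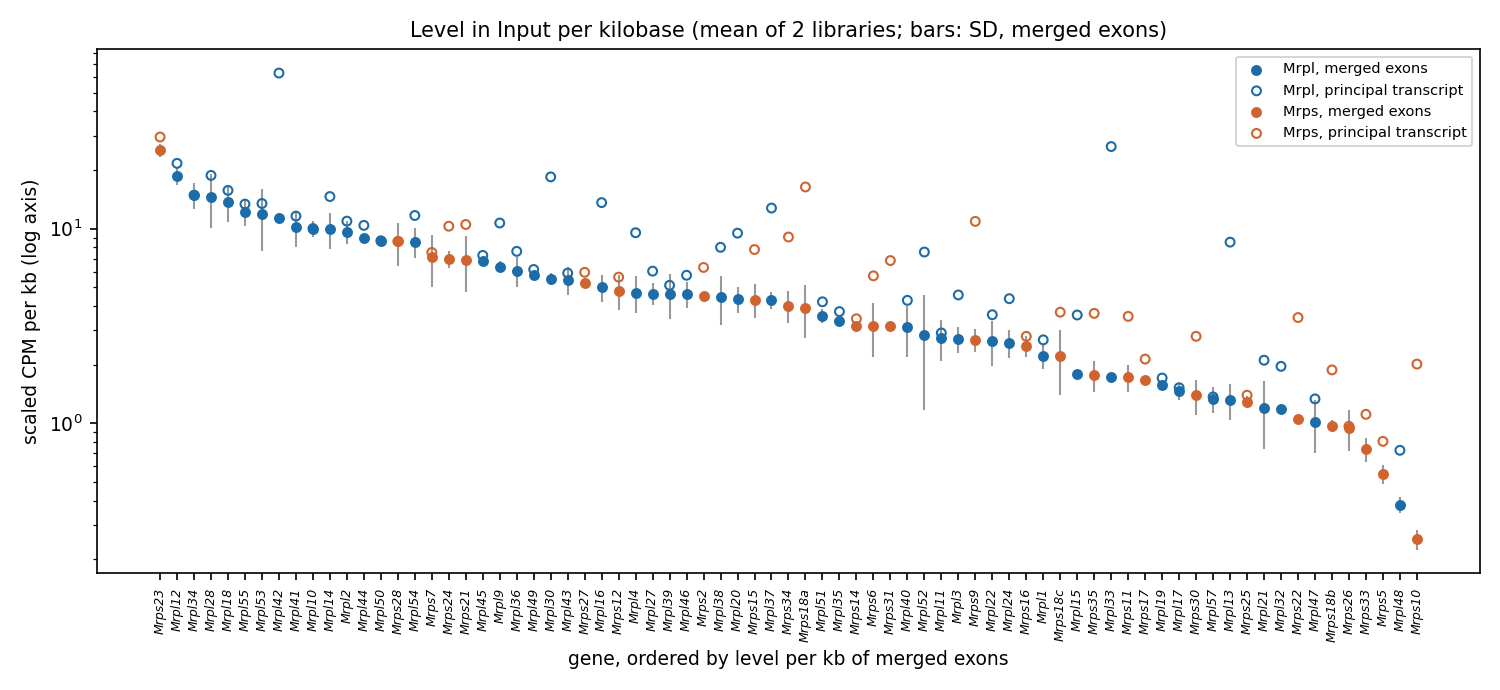
Level of each tested member in Input in scaled CPM per kilobase (log axis), as the mean of 2 libraries, with Mrpl genes in blue and Mrps genes in orange. Filled points use merged exons, with SD bars, and open points use the principal transcript. Mrps23 and Mrpl12 lead by merged exons and Mrpl42 by the principal transcript.

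Summed over all 77 members, reads made up a smaller share of the non-Rn45s reads in both kinds of RIP than in Input. In control RIP the share was 0.122% and 0.162% (exact Clopper-Pearson 95% intervals 0.119% to 0.124% and 0.159% to 0.165%). In Cnot3 RIP it was 0.161% and 0.129% (intervals 0.159% to 0.164% and 0.127% to 0.131%), and in Input 0.235% and 0.260% (intervals 0.230% to 0.240% and 0.256% to 0.264%). Both Input libraries were above all 4 RIP libraries, while the RIP groups overlapped. The group means were 0.142% ± 0.0287 (SD, n = 2) for control RIP, 0.145% ± 0.0231 for Cnot3 RIP and 0.247% ± 0.0179 for Input. Among the RIP libraries, control RIP replicate 2 and Cnot3 RIP replicate 1 had the higher shares, and they were also the ones with more fibroblast and endothelial marker RNA; the part of cell composition in the shares was not tested, and in bulk samples fewer cells of a type cannot be told apart from less RNA per cell. As a share of all reads, Rn45s included, Input no longer stood highest: the means were 0.0524% in Input, 0.0571% in control RIP and 0.0693% in Cnot3 RIP. On that scale control RIP replicate 1, at 0.0484%, lay below both Input libraries (0.0509% and 0.0540%) and the other RIP libraries lay above them. Without molecular identifiers reads are not independent molecules, so these intervals describe counting error alone.

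The balance between the subunits moved less than the total. Mrpl reads were 1.93 and 1.96 times the Mrps reads in control RIP, 2.05 and 2.13 times in Cnot3 RIP and 2.24 and 2.19 times in Input. The values of the 3 groups did not overlap, with control RIP lowest and Input highest, and the means were 1.94 ± 0.0225, 2.09 ± 0.0580 and 2.21 ± 0.0380 (SD, n = 2). With 2 libraries a group no exact test of a single value can pass the threshold. Without Mrpl42 and Mrps23, the members of each subunit with the most Input reads, the ratio was 2.47 and 2.39 in Input, 2.26 and 2.33 in Cnot3 RIP and 2.07 and 2.16 in control RIP, with the groups in the same order. In the RIP libraries Mrps23 also had the most reads of the Mrps genes, but other Mrpl genes, such as Mrpl3 with 355 in control RIP replicate 1, had more than Mrpl42.

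**Figure D2:**
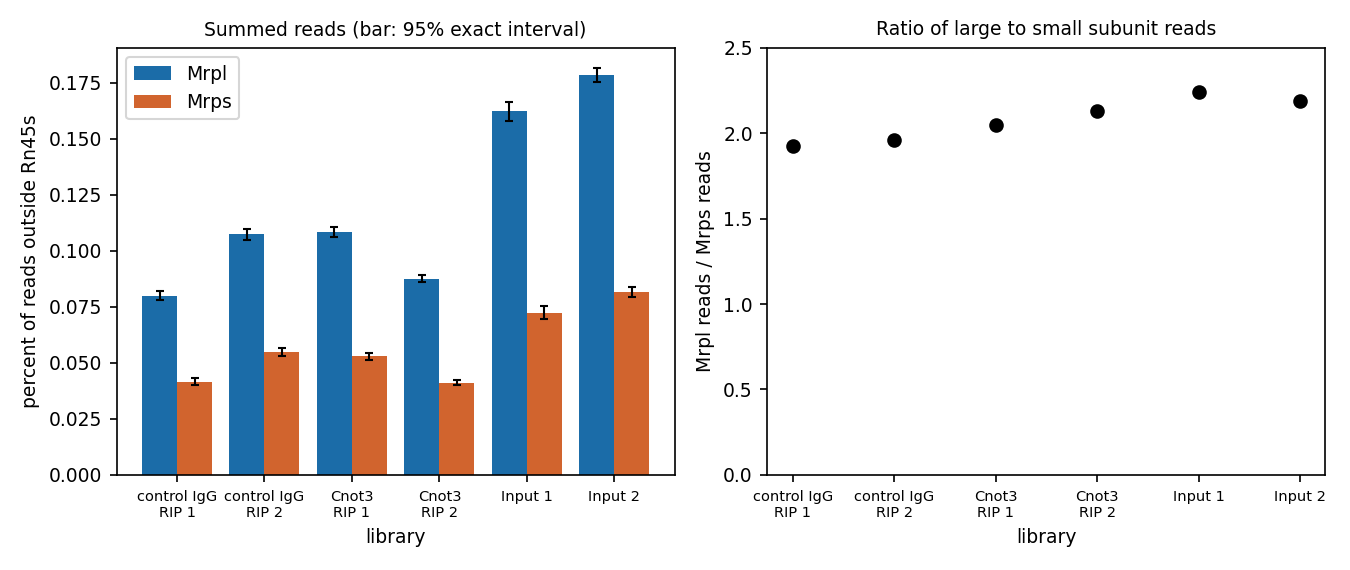
Reads of Mrpl and Mrps genes per library as a percent of reads outside Rn45s, and the ratio of the sums. Both Input libraries hold a larger share (0.235% and 0.260%) than any RIP library, and the ratio is lowest in control RIP (1.93 and 1.96).

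Cnot3 RIP and control RIP did not differ detectably in any member. Of the 75 tested, 0 passed limma's test at an adjusted p under 0.05 in either direction, and edgeR's quasi-likelihood test on the recovered reads also called 0; at an unadjusted p under 0.05 limma had 0 higher and 1 lower. Over all genes 1.54% were called higher and 0.277% lower, 1.81% together. The median log2 difference of members was −0.04, at the median of all genes (0.00), and the range was −0.60 to 0.45. The members' groups did not overlap with Cnot3 RIP higher in 13 and with it lower in 9, where over all genes 24.0% and 21.8% did so.

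Within this comparison, with all 6 libraries, the subunits lay on different sides of the median, by a small distance. Of 47 Mrpl genes 28 were above 0 and 19 below, with a median of 0.07, and of 28 Mrps genes 6 were above and 22 below, with a median of −0.13. With deposited CPM, where the median of all genes was itself 0.30, both medians were above 0 (0.38 and 0.16) and 4.55% of all genes were called higher and 0.254% lower, so the sides of 0 depend on scaling, while the gap between the subunits, 0.20, was 0.22. Moving Mrps18a and Mrps30 to the large subunit, where structures place their products, gave a gap of 0.19. The gap had the same sign when each library was left out, but the sides of the median rested on single libraries. Without control RIP replicate 1 the Mrpl median was −0.056, below that of all genes (−0.018). Without Cnot3 RIP replicate 1 it was −0.075, again below all genes (0.005). With any other library left out the subunits stayed on different sides. No member of either subunit passed the test.

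The largest differences to lower values in Cnot3 RIP were in Mrps18b, Mrpl15, Mrps10 and Mrps25. Mrps18b, a small subunit protein gene, stood at 2.31 and 2.27 scaled CPM in control RIP and 1.35 and 1.50 in Cnot3 RIP, a log2 difference of −0.60 (SE 0.27, limma adjusted p = 0.307). Mrpl15 had 10.3 and 9.06 against 6.73 and 6.42, a log2 difference of −0.54 (SE 0.22, adjusted p = 0.242). In both genes the 2 groups did not overlap. Mrps10 had 1.21 and 1.45 against 0.962 and 0.839 (log2 difference −0.46, adjusted p = 0.512), and Mrps25 had 6.34 and 7.43 against 6.38 and 3.84 (log2 difference −0.45, adjusted p = 0.481), where the groups overlapped. Of the Mrps25 transcript, 74.4% of 36-base words are shared with transcripts of Nr2c2, a neighbour on the opposite strand, and 64.2% of those of Mrps18b with other genes' transcripts; whether counting used strand is not given in the sources used here, so both are uncertain.

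At the other end stood Mrps2, Mrpl10, Mrpl20 and Mrpl22. Mrps2, one of the subunits with a bacterial counterpart, had 6.69 and 6.34 scaled CPM in control RIP and 7.98 and 10.2 in Cnot3 RIP, a log2 difference of 0.45 (SE 0.23, adjusted p = 0.365). Mrpl10, which holds the stalk, had 11.2 and 10.8 against 12.4 and 18.4, a log2 difference of 0.45 (SE 0.25, adjusted p = 0.427). In these genes the groups did not overlap, but Cnot3 RIP replicate 2 was above replicate 1 in each, more so in Mrpl10. Mrpl20 had 3.34 and 4.30 against 5.77 and 4.59 (log2 difference 0.42, adjusted p = 0.488), and Mrpl22 had 1.85 and 2.58 against 3.56 and 2.19, with overlap (log2 difference 0.32, adjusted p = 0.726).

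**Figure D3:**
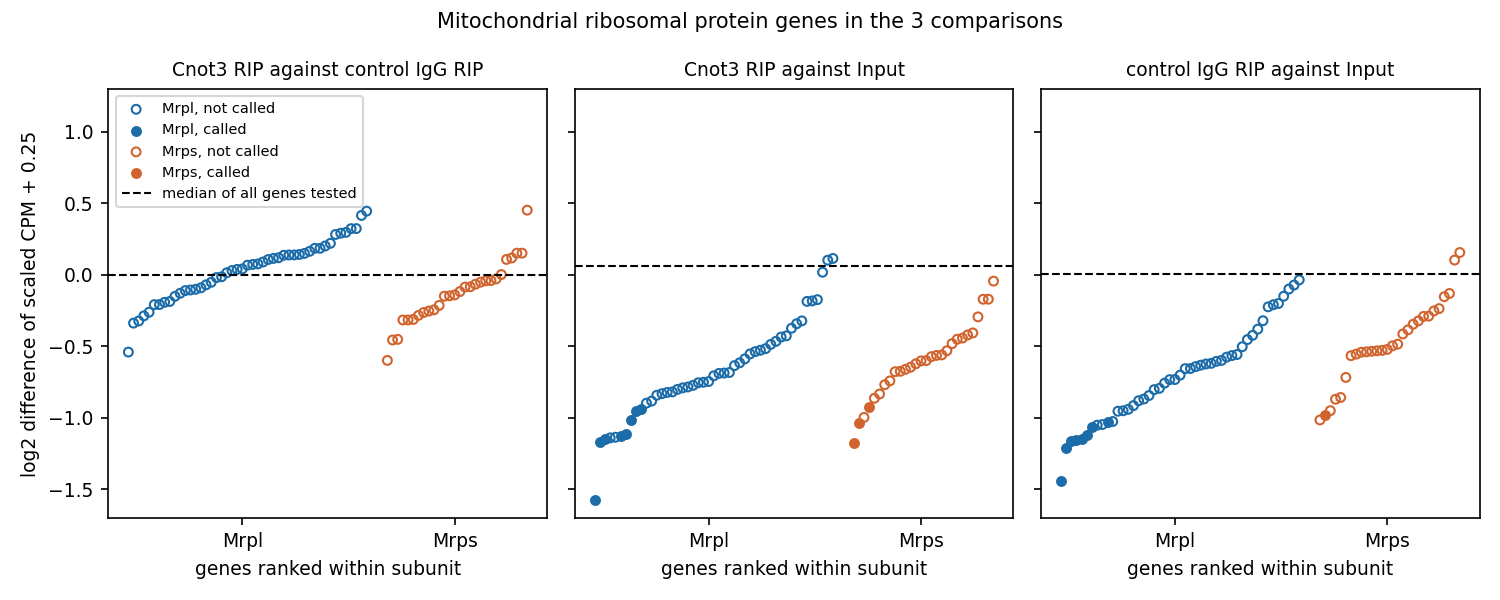
Log2 difference of every tested member in the 3 comparisons, ranked within Mrpl (blue) and Mrps (orange). Filled points passed limma's adjusted p under 0.05, and the dashed line is the median of all genes tested. In both comparisons with Input 73 of 75 members lie below that line on TMM-scaled values; on deposited CPM 72 lie below the median of all genes, although most are then above 0.

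Against Input, the members as a set lay below most other genes in Cnot3 RIP. With TMM scaling 11 of the 75 were lower at a limma adjusted p under 0.05, 8 Mrpl and 3 Mrps, and 0 were higher (also 0 at an unadjusted p under 0.05 and by edgeR); over all genes 2.47% were called lower and 5.86% higher, 8.32% together. The median log2 difference was −0.66, against 0.06 over all genes, with −0.71 for Mrpl and −0.60 for Mrps, and 73 of 75 members lay below the median of all genes. In 66 members every Cnot3 RIP library was under every Input library and in 0 the reverse held, where over all genes 26.9% were lower and 30.6% higher without overlap. On deposited CPM, which scale to total reads with Rn45s included, the direction turned: 66 members were above 0 and 9 below, the median was 0.37, and 14 were called higher and 0 lower. On that scale 59.6% of all genes were called higher and 0.0538% lower, the median of all genes was 1.02, and 72 of 75 members were again below it, by a median of 0.65.

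Mrpl42 differed most. It had 40.2 and 43.7 scaled CPM in Input, 16.0 and 14.5 in control RIP and 14.3 and 13.5 in Cnot3 RIP, so all RIP libraries lay far below Input and close to each other. Cnot3 RIP was at 0.336 of Input (log2 difference −1.57, SE 0.21, limma adjusted p = 0.00908), and on deposited CPM the difference was −0.50 and not called. Its transcript shares 25.7% of its 36-base words with the gene model Gm6419.

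The other members lower in Cnot3 RIP had smaller differences. Mrpl15 had 15.3 and 14.9 scaled CPM in Input and 6.73 and 6.42 in Cnot3 RIP (log2 difference −1.17, SE 0.22, adjusted p = 0.0179). Mrpl18 had 16.3 and 22.0 in Input and 8.94 and 7.94 in Cnot3 RIP (log2 difference −1.15, SE 0.25, adjusted p = 0.0281), and Mrpl32, at 5.73 and 6.08 against 2.81 and 2.34, had −1.13 (adjusted p = 0.0313). Mrps34, a subunit added in the mitochondrial lineage, had 7.20 and 9.42 against 3.74 and 3.30 (log2 difference −1.17, adjusted p = 0.0274), Mrps24 had 9.51 and 11.0 against 5.27 and 4.47 (−1.04, adjusted p = 0.0364), and Mrps23 had 37.3 and 41.4 against 22.2 and 19.2 (−0.92, adjusted p = 0.0363). In all 6 genes both Cnot3 RIP libraries lay below both Input libraries. The exons of Mrps34 overlap those of Mapk8ip3 and Nme3 over 77.8% of their length, so its reads are uncertain.

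Mrpl12, Mrpl30, Mrpl50 and Mrpl49 completed the 11 and are named after their values were seen. Their log2 differences were −1.11, −1.02, −0.96 and −0.94. Mrpl12 had 26.5 and 30.5 scaled CPM in Input and 15.4 and 11.0 in Cnot3 RIP. On deposited CPM 6 of the 11 were below 0 and 5 above, none of them called. The number of calls rested on single libraries. With 1 library left out it moved in the same direction in members and over all genes, so its changes are not a result about members. The median of members in these fits ran from −0.86 to −0.55.

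**Figure D4:**
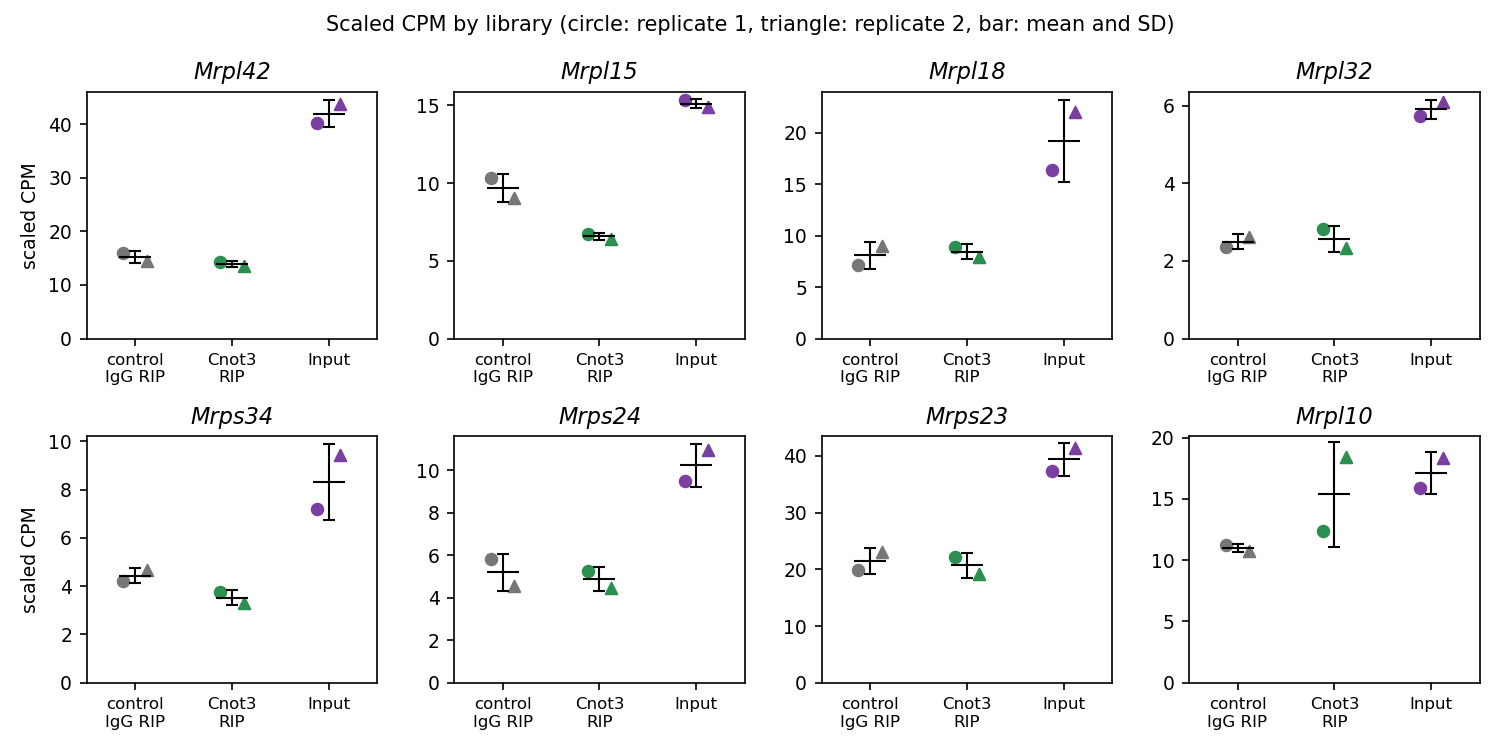
Scaled CPM in each of the 6 libraries for 8 members named in the text, with the mean and SD of each group. Mrpl42 stands at 40.2 and 43.7 in Input and between 13.5 and 16.0 in the 4 RIP libraries.

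Control RIP was set against the same Input libraries, so its values are given side by side with those of Cnot3 RIP. The members lay below most other genes here too. With TMM scaling 9 members were lower, 8 Mrpl and 1 Mrps, and 0 were higher (also 0 at an unadjusted p under 0.05 and by edgeR); over all genes 1.49% were called lower and 2.58% higher, 4.07% together. The median was −0.60 against 0.01 over all genes, with −0.70 for Mrpl and −0.51 for Mrps, and 73 of 75 members were below the median of all genes. In 60 members the control RIP libraries were all under Input and in 1 they were above, where over all genes 29.3% were lower and 29.7% higher without overlap. On deposited CPM 49 members were above 0 and 26 below, the median was 0.13, 1 member was called higher and 0 lower, and 33.7% of all genes were called higher and 0.0769% lower. There too 72 of 75 were below the median of all genes, which was 0.70. The 9 calls also rested on single libraries, and with 1 left out their number moved as it did over all genes. The median of members in these fits ran from −0.78 to −0.46.

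Mrpl42 again differed most, with a log2 difference of −1.45 (SE 0.21, adjusted p = 0.0128). Mrpl18, at 7.15 and 9.02 scaled CPM in control RIP, had −1.21 (adjusted p = 0.0359), Mrpl32, at 2.36 and 2.63, had −1.17 (adjusted p = 0.0408), and Mrpl30, at 7.67 and 8.06 against 17.0 and 18.7 in Input, had −1.16 (adjusted p = 0.0273). Mrps2 had 6.69 and 6.34 against 12.7 and 13.6 (−0.98, adjusted p = 0.0491), while its difference between Cnot3 RIP and Input was −0.53 (adjusted p = 0.175). The other calls, named after their values were seen, were Mrpl36 (−1.15), Mrpl49 (−1.12), Mrpl12 (−1.06) and Mrpl50 (−1.03). On deposited CPM all 9 remained below 0 and none was called.

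A few members were at or above Input on TMM-scaled values in 1 of the comparisons, of which Mrpl19 and Mrpl1 are named after their values were seen. Mrpl22 had a log2 difference of 0.11 in Cnot3 RIP against Input, Mrpl19 0.10 and Mrpl1 0.02, and Mrps18b had 0.16 and Mrps5 0.10 in control RIP against Input. None passed the test. Mrpl1, at 10.5 and 8.55 scaled CPM in Input, had 8.71 and 9.33 in control RIP and 8.73 and 10.6 in Cnot3 RIP, with all 3 groups overlapping. Mrpl3 and Mrps27, chosen for their roles after their values were seen, lay a little below Input and were not called. Mrpl3, which reaches towards the peptidyl transferase centre, had 16.2 and 20.1 in Input, 20.5 and 15.1 in control RIP and 13.5 and 15.3 in Cnot3 RIP. Mrps27, a pentatricopeptide repeat protein, had 11.0 and 11.1 in Input and 8.65 to 9.95 in the RIP libraries, a log2 difference of −0.17 in Cnot3 RIP (adjusted p = 0.653).

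Members at other well described places in the large subunit, picked for their roles after their values were seen, did not pass the test. Mrpl11, at the base of the stalk, had 8.86 ± 2.08 scaled CPM (SD, n = 2) in Input and 4.64 ± 0.49 in Cnot3 RIP, a log2 difference of −0.88 (limma adjusted p = 0.0659). Mrpl45, which helps hold the ribosome at the inner membrane, had 17.7 ± 0.81 and 10.5 ± 1.79 (−0.75, limma adjusted p = 0.0858). Mrpl2, a core protein near the peptidyl transferase centre, had 11.3 ± 1.56 and 7.81 ± 1.25 (−0.52, limma adjusted p = 0.196). The control RIP means of these 3 genes were 5.18, 10.7 and 7.84. Beside the called stalk gene Mrpl12 (−1.11), its anchor Mrpl10 had −0.17 in Cnot3 RIP against Input (adjusted p = 0.704), with 18.4 scaled CPM in Cnot3 RIP replicate 2 and 18.3 in Input replicate 2.

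The paralogues Mrps18a, Mrps18b and Mrps18c, whose products are relatives of one bacterial protein, are given side by side, with no test between them. Mrps18a, whose product sits in the large subunit, had 11.4 and 17.6 scaled CPM in Input, 8.19 and 11.4 in control RIP and 10.3 and 8.03 in Cnot3 RIP. Mrps18b had 2.12 and 1.93 in Input, and Mrps18c had 1.75 and 2.99. Per kilobase of merged exons the Input means were 3.92 for Mrps18a, 2.21 for Mrps18c and 0.97 for Mrps18b. Their log2 differences between Cnot3 RIP and Input were −0.62, −0.44 and −0.45 for a, b and c, and none was called. Mrps6, whose exons overlap those of Slc5a3 over 10.4% of their length, had 3.79 and 5.89 in Input and 2.94 to 4.35 in the RIP libraries (Cnot3 RIP against Input −0.48, adjusted p = 0.325). Mrps12, at the decoding centre and named after its values were seen, had 4.25 and 5.70 in Input and 2.49 to 3.74 in the RIP libraries (−0.65, adjusted p = 0.183).

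Mitochondrial ribosomal protein transcripts are short, and length moved with the difference from Input over all genes. The principal transcript had a median of 1316 bases in members (418 to 7300) and 3152 over the 12033 tested genes with a length. Across these genes, which are not independent, Pearson's r between log2 length and the log2 difference was 0.44 (Spearman 0.50) for Cnot3 RIP against Input, 0.41 (0.45) for control RIP against Input and 0.08 (0.11) for Cnot3 RIP against control RIP. Among the 75 members r was 0.30 (0.29), 0.31 (0.27) and −0.05 (0.01). In the shortest quartile of genes, 311 to 2041 bases, the median difference of Cnot3 RIP from Input was −0.40 over all genes and −0.68 in the 51 members there. In the next it was −0.06 and −0.67 (9 members), in the third 0.14 and −0.53 (11 members) and in the longest 0.40 and −0.47 (4 members). The median of members was below that of all genes in each quartile, also in control RIP against Input (−0.39 and −0.60, −0.09 and −0.73, 0.05 and −0.55, 0.30 and −0.22). The quartiles are wide and include the members, so lengths are not matched within them. The part of length in the members' difference was not tested further.

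**Figure D5:**
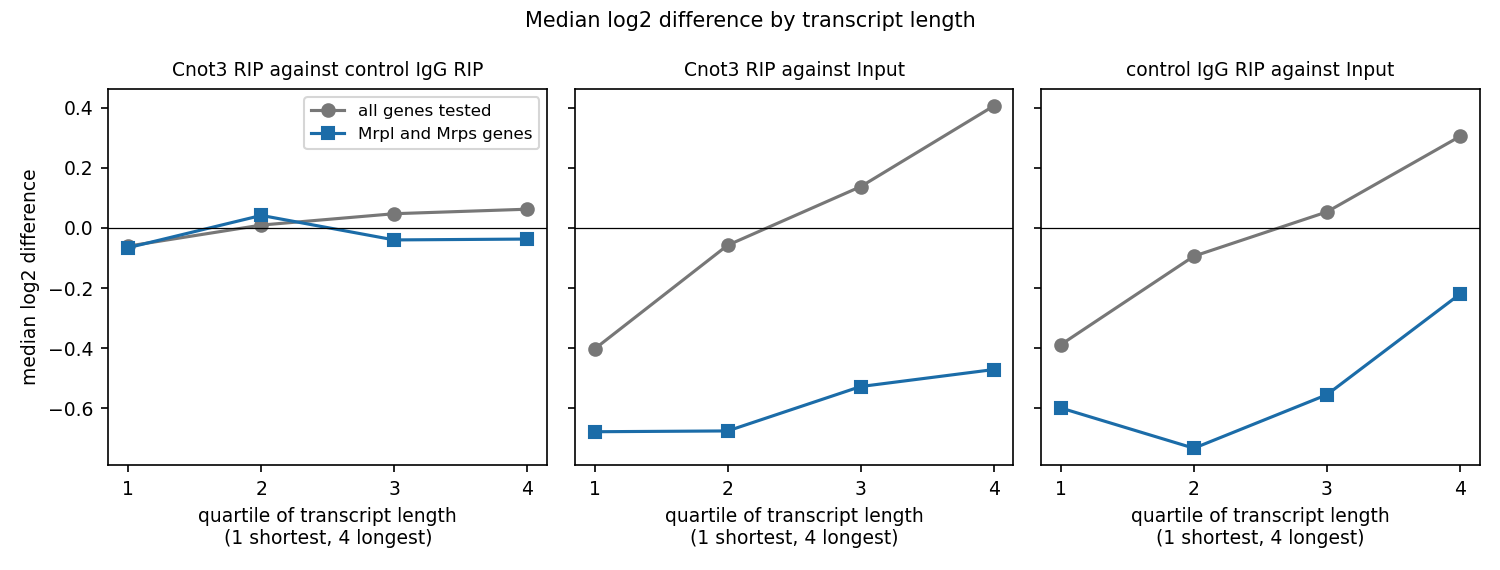
Median log2 difference by quartile of principal transcript length, for all tested genes (grey) and for Mrpl and Mrps genes (blue), in the 3 comparisons. The median of members lies below that of all genes in every quartile of both Input comparisons, at −0.68 against −0.40 in the shortest quartile of Cnot3 RIP against Input.

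Other genes of mitochondrial translation were set beside the members with the same test. Of 6 mitochondrial ribosomal subunits named otherwise, 2 were lower in Cnot3 RIP against Input and 0 higher: Ict1, a peptidyl-tRNA hydrolase of the large subunit, with 6.93 and 8.21 scaled CPM in Input and 3.56 and 2.91 in Cnot3 RIP (log2 difference −1.17, adjusted p = 0.0275), and Aurkaip1, at 11.7 and 15.4 against 7.09 and 5.46 (−1.08, adjusted p = 0.0372). Ict1 was also lower in control RIP (−1.21, adjusted p = 0.0365). On deposited CPM both genes were below 0 and not called. On that scale 2 of the 6 in this list were called higher and 0 lower in each Input comparison. The medians of the list were 0.45 in Cnot3 RIP and 0.15 in control RIP, or −0.57 and −0.55 relative to all genes. Dap3, named after its values were seen, had 15.6 and 19.6 scaled CPM in Input and 14.2 and 13.6 in Cnot3 RIP and was not called. Of 20 assembly factors and 15 translation factors, limma and edgeR called 0 in either Input comparison with TMM scaling. On deposited CPM 8 assembly factors and 8 translation factors were called higher in Cnot3 RIP and 3 and 5 in control RIP, with 0 lower. Over all genes 59.6% were called higher in Cnot3 RIP and 33.7% in control RIP on that scale. At an unadjusted p under 0.05 limma had 1 assembly factor higher and 2 lower in Cnot3 RIP and 1 and 3 in control RIP. It had 2 translation factors higher and 2 lower in Cnot3 RIP and 1 and 3 in control RIP. Of all 13010 genes 2011 were higher and 1531 lower in Cnot3 RIP by that measure, and 1725 and 1519 in control RIP. The medians of the assembly and translation factors in Cnot3 RIP against Input were −0.24 and −0.16, nearer to all genes than the members' −0.66. No difference between lists was tested.

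Of 20 mitochondrial aminoacyl-tRNA synthetases, 1 was lower in Cnot3 RIP against Input, Lars2, the leucyl enzyme (−1.72, adjusted p = 0.0440), with 25369 and 22118 scaled CPM in Input and 7774 and 6636 in Cnot3 RIP, and edgeR called it too. No other synthetase exceeded 62.3 scaled CPM in any library. Lars2 was highest in Input, intermediate in control RIP (12038 and 11762) and lowest in Cnot3 RIP, as was the percent of reads in Rn45s; the part of ribosomal RNA in its level was not tested. On deposited CPM Lars2 was at −0.64 (limma adjusted p = 0.0670). There 16 of the 20 synthetases were called higher and 0 lower in Cnot3 RIP, with 10 higher and 0 lower in control RIP. Over all genes 59.6% and 33.7% were called higher on that scale. Of 13 tested genes of mitochondrial transcription and its regulators, 1 was higher in each Input comparison with TMM scaling (5.86% and 2.58% of all genes). On deposited CPM, with the shares over all genes just given, 11 were higher in Cnot3 RIP and 6 in control RIP. Ppargc1b, a coactivator of mitochondrial genes, had 26.9 and 25.6 scaled CPM in Input, 40.5 and 37.0 in control RIP and 64.2 and 102 in Cnot3 RIP (Cnot3 RIP against Input 1.61, adjusted p = 0.0124). In Cnot3 RIP against control RIP it had 1.06 and was not called (limma adjusted p = 0.0765, edgeR 0.0712). That result depended on scaling: limma called it on values scaled to reads outside Rn45s (adjusted p = 0.0438) and on deposited CPM (adjusted p = 0.0189). Nrf1, whose product binds the core shown above in Mrpl12, had 4.89 and 3.81 in Input and 8.25 and 10.7 in control RIP (1.08, adjusted p = 0.0481), which edgeR did not call (adjusted p = 0.0527).

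Of 85 cytosolic ribosomal protein genes, the counterpart of the members on the cytoplasmic ribosome, only 55 passed the filter on low values. Those tested were further below Input: 19 were lower in Cnot3 RIP and 23 in control RIP and 0 were higher, with medians of −0.91 and −1.20. Over all genes 2.47% and 1.49% were called lower and 5.86% and 2.58% higher. On deposited CPM 59.6% and 33.7% of all genes were called higher and 0.0538% and 0.0769% lower. There the first median of the cytosolic genes turned to 0.08 with 0 called, and the second was −0.50 with 2 higher and 4 lower. Relative to all genes the medians on that scale were −0.94 and −1.20. In Cnot3 RIP against control RIP their median was 0.16 and that of the members −0.04, with 0 called in each list by limma or edgeR (at an unadjusted p under 0.05 limma had 3 cytosolic genes higher and 1 lower). Their principal transcripts are shorter still, with a median of 976 bases.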

How the data were processed

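RNA from heart lysates was measured in 6 libraries, and the authors deposited 1 table of CPM, read counts per gene symbol scaled to the same total in each library, Rn45s among them. Tools named in the submitters' processing notes were edgeR, TopHat2 2.1.0, Bowtie2 2.2.5, FastQC and CASAVA 1.8, with mm10; no counter, annotation, library kit or strand setting is given there. Whole reads were recovered for 100% of values within 0.01 read. CPM were scaled with TMM factors (edgeR 4.0.16), and limma 3.58.1 (R 4.3.3, empirical Bayes with a trend) was fitted to log2(scaled CPM + 0.25) over all 6 libraries with 3 group means and no block, leaving 3 residual and 6.24 prior degrees of freedom. Differences on this scale understate those of low genes. Genes were kept by filterByExpr at a minimum count of 10 (13010 of 24421), and a gene was called at a Benjamini-Hochberg adjusted p under 0.05 over all of them. edgeR's quasi-likelihood test on recovered reads, other scalings, pseudocounts and filters, a replicate block and leaving out each library were the alternatives. The fit was tested on simulated data with the same share of Rn45s in every library, so that test does not cover the scaling.

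A count of 0 allows up to 3 reads, 0.0899 to 0.277 scaled CPM depending on the library. Lengths, coordinates and exon overlaps came from GENCODE vM21 (mm10) and promoters from RefSeq. The members and lists were chosen with earlier results of these data known. Named genes were up to 4 called Mrpl and 4 called Mrps genes of largest difference in each direction, the 4 of largest difference each way where fewer than 4 were called, the highest and lowest per kilobase, members under the filter, the Mrps18 paralogues, Mrps36, Mrps6 and Mrpl12, and up to 4 called genes of each other list; genes named outside it, chosen after their values were seen, are marked as such in the text.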

Additional observations from a re-analysis of the deposited data

How the results depend on the processing

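The direction of members against Input depends on scaling. On deposited CPM (library size alone) the medians were 0.27 in Cnot3 RIP against control RIP, 0.37 in Cnot3 RIP against Input and 0.13 in control RIP against Input. In the Input comparisons 14 and 1 members were higher and 0 lower. Of all 13010 genes 7752 and 4383 were higher there and 7 and 10 lower. Mrps24 and Mrps23 turned to 0.0088 and 0.15 in Cnot3 RIP against Input. Scaling to reads outside Rn45s, chosen after seeing the data, gave 3 lower (113 over all 13010 genes) and a median of −0.75 in control RIP against Input. Relative to all genes the Input medians kept their direction in every setting run. Without the filter 4 and 5 members were lower in the Input comparisons, and 103 and 102 of all 18620 genes. With a minimum count of 50, 17 members were lower in Cnot3 RIP, and 580 of all 9907 genes. By edgeR 12 and 6 members were lower, and 351 and 119 of all 13010 genes. Leaving out each library gave medians of −0.14 to 0.10, −0.86 to −0.55 and −0.78 to −0.46 and 0 to 19 and 0 to 14 lower calls; relative to all genes the median of control RIP against Input was −0.78 to −0.46. Where this left 1 library in a group, it was assumed to vary like the others.

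Same-numbered libraries did not deviate together in every pair of groups: r of their deviations over all genes was −0.32 for control RIP and Cnot3 RIP, 0.34 for Cnot3 RIP and Input and −0.33 for control RIP and Input. The numbers are therefore not taken as a pairing. With the replicate block 7 and 3 members were lower in Cnot3 RIP and control RIP against Input, and 166 and 77 of all 13010 genes. With the control RIP numbers crossed, chosen after seeing the data, 24 and 23 members were lower, and 922 and 820 of all genes. Calls thus changed over all genes as in members.

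Input levels per kilobase had medians of 5.91 and 3.75 (Mrpl and Mrps) by the longest and 7.64 and 4.68 by the principal transcript, added after seeing the data. The summed share was 0.0571%, 0.0693% and 0.0524% of all reads in control RIP, Cnot3 RIP and Input. Without Mrpl42 and Mrps23 the Input share was 0.222% of reads outside Rn45s, and the ratio of Mrpl to Mrps was 2.12, 2.29 and 2.43. The cause of these shifts was not tested beyond the construction of each setting. Of 278 alternative values for single named genes, 205 kept direction and side of the threshold, 71 kept direction only and 2 turned. The 71 are all calls against Input that were lost. The 205 include the genes named for Cnot3 RIP against control RIP, which were not called and kept their side by staying uncalled.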

Other observations

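Replicates differed within groups by amounts that bear on the members. The median member was 0.29 lower (log2) in Input replicate 1 than in replicate 2, with replicate 1 higher in 14 of 75, while the median over all genes was 0.01 lower. In Cnot3 RIP replicate 1 was higher in 51 of 75 with a median of 0.17, and in control RIP in 35 with a median of −0.07. The SD of the difference over members was 0.31 in control RIP, 0.35 in Cnot3 RIP and 0.28 in Input.

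Members are spread over the genome, with 10 on chromosome 11, 8 on 17, 7 on 6 and 6 on 7. The exons of 23 members overlap another gene in the table, by more than 50% of their length in 2, Mrps34 and Mrps25. By sequence, 6 members share more than 50% of their 36-base words with transcripts of other genes, among them Mrpl53, whose words all occur in the gene model Gm42688, and 23 share none.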
